A study of Mus musculus with 8 samples.

Results

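The miR-181 family comprises miR-181a, miR-181b, miR-181c and miR-181d, which were picked on the arrays by their mouse names (mmu-miR-181a, mmu-miR-181b, mmu-miR-181c and mmu-miR-181d) and made up 4 of the 611 mouse names measured. A microRNA guides the silencing complex to messenger RNAs that pair with its seed, the bases 2 to 8 from the 5′ end, and lowers their translation and stability. In the mouse miR-181a is best known from the thymus, where it lowers several phosphatases and so sets the sensitivity of the T cell receptor, a pathway that runs through a Src family kinase. Csk is the kinase that phosphorylates the tail of Src family kinases and holds them inactive, and c-Src is the founding member of that kinase family.

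All cells were embryonic fibroblasts of C57BL/6J mice that lack Csk (Csk-/-), so the Csk deletion was shared by every group, the control included. They carried an empty vector (mock), c-Src (Src), Csk and c-Src together (Csk+Src) or Csk alone (Csk), with 2 one-colour Agilent microRNA arrays per group and 8 in all. The study set out to profile microRNAs of transformation by c-Src, and mock, Src, Csk+Src and Csk form a layout with each gene absent or added. The vectors, their promoters and whether a group was 1 cell line are not given in the sources used here, and probes for Csk or c-Src messenger RNA, which would check the labels, are not among those of a microRNA array.

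The sequences are shown because the members differ by few bases, all outside the seed, so that a probe and a target are asked to tell near-identical RNAs apart. The mature sequences are those of RefSeq on GRCm38.p6, 5′ to 3′, with the seed in capitals. The array names carry no arm, and were matched to the 5p arm for the members and to the 3p arm for the names with a star.
mmu-miR-181a-5p: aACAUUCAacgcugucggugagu
mmu-miR-181b-5p: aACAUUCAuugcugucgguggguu
mmu-miR-181c-5p: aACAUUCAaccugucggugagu
mmu-miR-181d-5p: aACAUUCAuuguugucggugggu
mmu-miR-181a-1-3p: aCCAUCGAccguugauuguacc
mmu-miR-181a-2-3p: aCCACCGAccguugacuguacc
The seed ACAUUCA was shared by all 4 members and by 0 other names among 1679 mature mouse sequences. Counted from 1 at the 5′ end of the first-named member, miR-181a and miR-181b differed by A9U, C10U and A21G, and miR-181b had 1 base more at its 3′ end. miR-181c was identical to miR-181a at 22 bases and lacked the base at position 11 of miR-181a. miR-181d was closest to miR-181b, with the single substitution C12U and 1 base fewer at its 3′ end. The arms with a star, which come from the other side of the miR-181a hairpins and are mostly degraded, had different seeds from each other and from the members.

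The family is encoded in 3 pairs of neighbouring hairpins. Mir181a-1 and Mir181b-1 lie 97 bases apart on the plus strand of chromosome 1, with the mature RNAs at chr1:137966468-137966490 and chr1:137966650-137966673, and neither lies within another annotated gene. Mir181a-2 and Mir181b-2 lie 1019 bases apart on the plus strand of chromosome 2, with the mature RNAs at chr2:38852741-38852763 and chr2:38853845-38853868, within the span of Nr6a1, which encodes an orphan nuclear receptor, and of the non-coding Nr6a1os. Mir181c and Mir181d lie 85 bases apart on the minus strand of chromosome 8, at chr8:84178924-84178945 and chr8:84178759-84178781. The mature miR-181a of both loci has 1 sequence, as has miR-181b, so the arrays cannot tell the chromosome 1 copies from those on chromosome 2.

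Each array detected between 201 and 250 of the 611 mouse microRNAs by the scanner software's own call, and 0 spots were saturated. Each member was read by 2 probes of 10 spots. On Csk array 2 the software marked 696 spots as outliers, where the remaining arrays had 270 to 351. The mesenchymal markers miR-21, miR-199a-3p, miR-199a-5p and miR-214 were detected on 8 of 8 arrays and miR-143 on 7, while miR-145 was detected on 0. All arrays shared 1 slide, on which a group filled a column and a replicate number a row, and slide position and transfection cannot be told apart. With 2 arrays per group the precision is limited, and p-values measure the spread between these arrays, which may be technical.

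The software called miR-181a and miR-181b detected on 8 of 8 arrays, miR-181c on 3 (mock array 1 and both Src arrays) and miR-181d on 2 (mock array 1 and Src array 2). No array of the groups that received Csk detected miR-181c or miR-181d, and how many of all microRNAs behaved so was not counted. The arrays detected 236 and 226 mouse microRNAs in mock, 250 and 239 in Src, 230 and 223 in Csk+Src, and 228 and 201 in Csk. The star arms miR-181a-1* and miR-181a-2* were detected on 0 of 8 arrays. For miR-181b all 20 spots lay well above background on every array, whereas for miR-181a 20 and 14 spots did so on the mock arrays, 18 and 14 on the Src arrays, 15 and 11 on the Csk+Src arrays and 12 and 11 on the Csk arrays. Signals of different probes are not compared here, since they differ in affinity.

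miR-181a was highest in mock cells and lowest in cells that received Csk, with or without c-Src. In the deposited signal, before any scaling between arrays, miR-181a read 45.7 and 46.1 intensity units in mock, 47.1 and 46.3 in Src, 36.9 and 36.4 in Csk+Src and 34.3 and 32.8 in Csk. In these units the mock and Src arrays lay together and the 4 arrays with Csk all lay below them. How many of all microRNAs separated in this way was not counted. The scaled levels start from spot signals averaged per probe and summed per microRNA, whose units differ from those of the deposited gene signal. The sums were scaled to each array's 75th percentile over microRNAs seen on every array. That percentile was 631 and 630 in mock, 806 and 758 in Src, 715 and 736 in Csk+Src, and 705 and 612 in Csk. On the resulting log2 scale miR-181a read -3.17 and -3.16 in mock, -3.49 and -3.41 in Src, -3.66 and -3.71 in Csk+Src, and -3.78 and -3.61 in Csk. The Src arrays now lay below both mock arrays and above all arrays with Csk, and the Csk+Src and Csk arrays overlapped. The share of all microRNAs in this order was not counted either. Group means were -3.17 ± 0.0084 in mock, -3.45 ± 0.057 in Src, -3.68 ± 0.034 in Csk+Src and -3.69 ± 0.12 in Csk (SD, n = 2 each). In a bulk sample fewer cells with a microRNA and less of it per cell cannot be told apart.

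miR-181b was also highest in mock cells, while the other 3 groups lay close to each other. Its deposited signal was 68.0 and 63.2 intensity units in mock, 67.3 and 64.0 in Src, 58.3 and 56.2 in Csk+Src and 62.7 and 50.01 in Csk. Before scaling, the mock and Src arrays again lay together, and Csk array 1 was within 1 unit of the lowest of them. After scaling, the log2 levels were -2.60 and -2.71 in mock, -2.97 and -2.94 in Src, -3.00 and -3.08 in Csk+Src, and -2.91 and -3.00 in Csk. Both mock arrays lay above the other 6, and the Src and Csk arrays overlapped. The share of all microRNAs with mock above the other 6 arrays was not counted. Group means were -2.65 ± 0.075 in mock, -2.96 ± 0.022 in Src, -3.04 ± 0.058 in Csk+Src and -2.95 ± 0.062 in Csk (SD, n = 2 each).

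**Figure D1:**
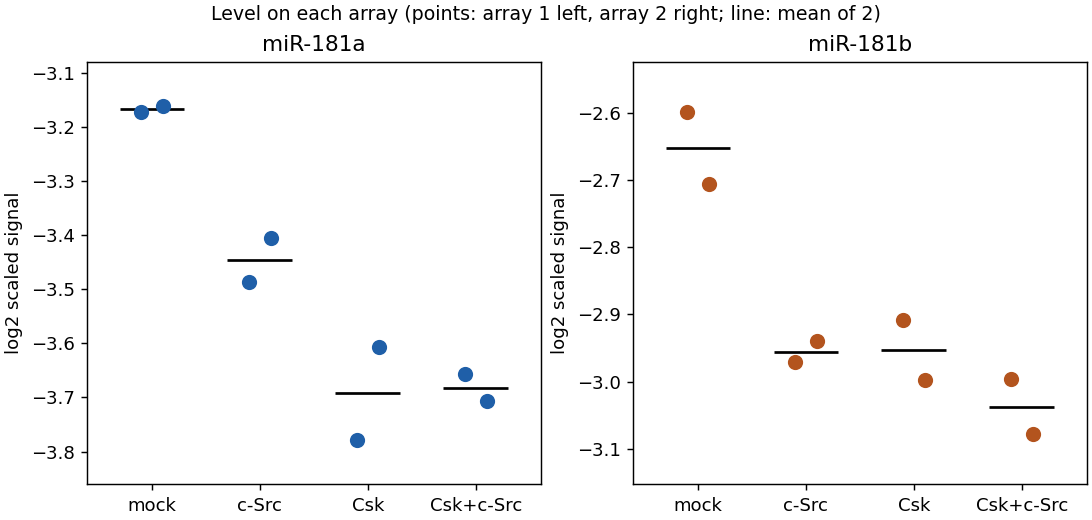
The log2 scaled signal of miR-181a and miR-181b on each array (vertical axis, log2 of signal over the array's 75th percentile) is drawn for the mock, Src, Csk and Csk+Src groups, array 1 left and array 2 right, with a line at the mean of 2. Mock arrays sit highest for both members, miR-181a has a middle Src level of -3.45, and the Csk and Csk+Src arrays overlap for both.

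The first comparison asked what added c-Src did in cells without Csk. Both measurable members were lower in Src than in mock after scaling. miR-181a fell by 0.28 on the log2 scale, or by 17.6% (SE 0.066, limma, Benjamini-Hochberg adjusted p = 0.0211 over all 243 microRNAs tested), and miR-181b by 0.30, or by 19.0% (SE 0.056, limma adjusted p = 0.0100). These 2 members stand beside 44.4% of all tested microRNAs that were called and 18.5% that were called lower, and 31.7% had both Src arrays below both mock arrays, as these members did. The median of all tested microRNAs was 0 in this comparison. The difference came with the scaling: in the unscaled table of the authors miR-181a differed by 0.03 (limma adjusted p = 0.757) and miR-181b by 0.0018 (0.989), while the median of all tested microRNAs there rose by 0.31, so that the members lay 0.28 and 0.30 below it. With 1 array left out the call on miR-181a was lost in 5 of 8 fits, and that on miR-181b in 0. For miR-181a the differences in those 5 were -0.29 without mock array 1 (limma adjusted p = 0.0723), -0.29 without mock array 2 (0.168), -0.24 without Src array 1 (0.0939), -0.34 without Src array 2 (0.0661) and -0.29 without Csk+Src array 2 (0.0940).

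Both measurable members were also lower in cells that received Csk alone than in mock. miR-181a fell by 0.53, or by 30.5% (SE 0.066, 95% interval -0.69 to -0.36, limma adjusted p = 0.0015). miR-181b fell by 0.30, or by 18.8% (SE 0.056, limma adjusted p = 0.0067). In this comparison 55.1% of all tested microRNAs were called, 16.9% as lower, 28.8% had both Csk arrays below both mock arrays, as these members did, and the median of all was 0.07. The fall of miR-181a was called in 14 of 15 other settings, between -0.70 and -0.44. The exception was normexp, a model-based correction of the background, with -0.47 (limma adjusted p = 0.165). For miR-181b it was called in 13 of 15, with -0.23 in the unscaled table (limma adjusted p = 0.143) and -0.36 after normexp (0.196).

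Cells with both genes lay below mock as well. miR-181a fell by 0.51, or by 30.0% (SE 0.066, limma adjusted p = 0.0043), and miR-181b by 0.39, or by 23.4% (SE 0.056, limma adjusted p = 0.0067). Of all tested microRNAs 34.2% were called here, 21.8% as lower, 45.3% had both Csk+Src arrays below both mock arrays, as these members did, and the median of all was -0.08. The comparisons of Src, Csk and Csk+Src with mock share the 2 mock arrays, so they are not independent of each other. Without Csk+Src array 2 miR-181a differed by -0.47 (limma adjusted p = 0.0953) and miR-181b by -0.32 (0.0645). miR-181a also lost its call without mock array 2 (-0.50, limma adjusted p = 0.0697), and miR-181b without Csk array 2 (-0.24, 0.0542). After normexp neither was called (-0.54 and -0.47, limma adjusted p = 0.0956 for both), and miR-181b was not called with the percentile over all mouse microRNAs (-0.22, 0.0524) or in the unscaled table (-0.20, 0.262).

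The next comparison asked what Csk did in cells that carried added c-Src. miR-181a was lower in Csk+Src than in Src by 0.24 log2 units, or by 15.1% (SE 0.066, limma adjusted p = 0.0354). miR-181b differed by -0.08 (95% interval -0.22 to 0.06, limma adjusted p = 0.291). In all, 44.9% of tested microRNAs were called, 29.2% as lower, 46.1% had both Csk+Src arrays below both Src arrays, as miR-181a and miR-181b did, and the median of all was -0.08. The call on miR-181a rested on the whole set of arrays: it was lost in 7 of 8 fits with 1 array left out, all but that without Csk array 1, with differences from -0.28 to -0.09 over the 8. Each of these fits set the scaling and floor anew. The difference of -0.09 was that without Csk array 2, which belongs to neither of the compared groups. It was -0.24 without mock array 1, -0.21 without mock array 2, -0.28 without Src array 1, -0.17 without Src array 2, -0.26 without Csk+Src array 1 and -0.17 without Csk+Src array 2. Scaled to the 75th percentile over all mouse microRNAs, the difference of miR-181a was -0.0049 (limma adjusted p = 0.984).

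With Csk present, added c-Src moved neither measurable member past the test in the main processing. miR-181a differed by 0.01 between Csk+Src and Csk (95% interval -0.16 to 0.18, limma adjusted p = 0.948) and miR-181b by -0.08 (95% interval -0.23 to 0.06, limma adjusted p = 0.259). Neither was called, while 60.9% of all tested microRNAs were, and 76.5% had arrays that did not overlap. The median of all was -0.15. Each fit with an array left out set the scaling and floor anew. Without Csk array 2 miR-181a differed by 0.30 and miR-181b by 0.07, while the median of all moved from -0.15 to 0.01. Both members were called higher in Csk+Src when the percentile was taken over all mouse microRNAs. miR-181a differed there by 0.36 (limma adjusted p = 0.0026) and miR-181b by 0.26 (0.0185), while the median of all shifted from -0.15 to 0.11. After quantile normalization both were called as well, at 0.34 (limma adjusted p = 0.0019) and 0.17 (0.0428), with a median of all of 0.02. The absence of a call thus depended on the scaling.

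Whether the difference made by c-Src depended on Csk was asked by the interaction, the difference Csk+Src minus Csk less the difference Src minus mock. It was 0.29 for miR-181a (SE 0.093, 95% interval 0.05 to 0.53, limma adjusted p = 0.0501) and 0.22 for miR-181b (SE 0.079, 95% interval 0.02 to 0.42, limma adjusted p = 0.0705). Both missed the threshold of 0.05, in a comparison in which 50.6% of all tested microRNAs were called, and the median of all was -0.17. With the scaling set anew without Csk array 2, where the median of all was 0, it was 0.58 for miR-181a and 0.37 for miR-181b. With the percentile over all mouse microRNAs it was 0.70 for miR-181a (limma adjusted p = 0.0014) and 0.63 for miR-181b (0.0045), and after quantile normalization 0.60 (0.0013) and 0.52 (0.0039). With the slide row, which is also the replicate number, as a block, the values stayed at 0.29 and 0.22 and both passed (limma adjusted p = 0.0481 and 0.0392).

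**Figure D2:**
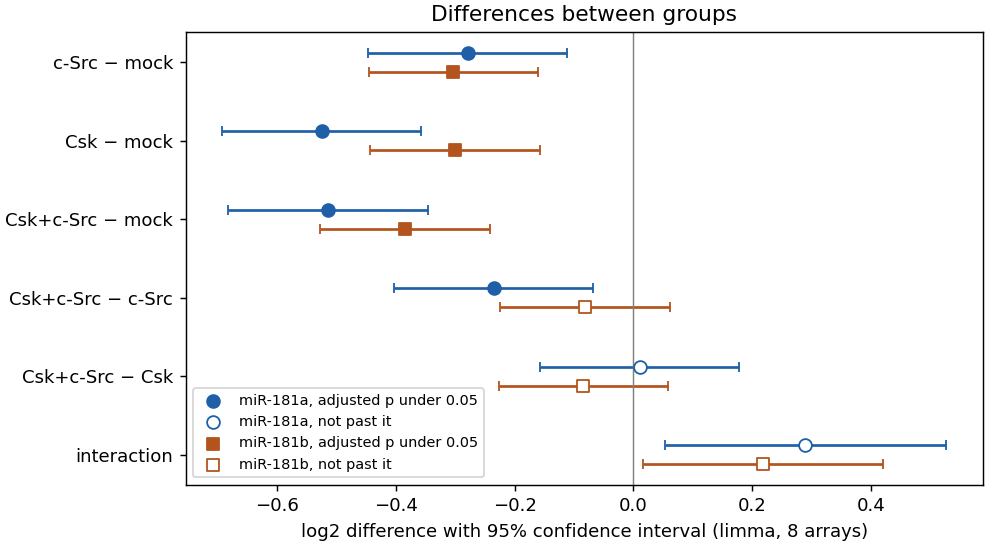
Log2 differences of miR-181a (circles) and miR-181b (squares) with 95% confidence intervals are drawn for the 5 comparisons and the interaction (horizontal axis, log2 difference), with filled symbols where the limma adjusted p was under 0.05. All 3 differences from mock lie below 0 for both members, from -0.28 to -0.53 for miR-181a and from -0.30 to -0.39 for miR-181b.

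An exact permutation test over all ways to deal the 8 arrays into 4 groups of 2, which fits no model across microRNAs, can give a p no lower than 0.00952. The groups held 95% of the variance of miR-181a (exact permutation p = 0.0286, adjusted over the 2 members 0.0571) and 92.8% of that of miR-181b (exact permutation p = 0.0667, adjusted 0.0667). Neither passed 0.05 after adjustment. Under the 5 other settings of scaling, background and probes, the adjusted exact permutation p was between 0.0190 and 0.0381 in 4 for miR-181a (0.0952 after normexp) and in 3 for miR-181b (0.276 in the unscaled table and 0.0571 after normexp). The difference between the log2 signals of both members on the same array, in which the array scaling cancels, was -0.52 ± 0.084 in mock, -0.49 ± 0.035 in Src, -0.64 ± 0.024 in Csk+Src and -0.74 ± 0.18 in Csk (SD, n = 2 each). On single arrays it was -0.57 and -0.46 in mock, -0.52 and -0.47 in Src, -0.66 and -0.63 in Csk+Src, and -0.87 and -0.61 in Csk. The 4 arrays with Csk all lay below the 4 without it, but by little. Csk array 2 (-0.61) and mock array 1 (-0.57) lay closer together than the 2 mock arrays did. How many other pairs of microRNAs separated in this way was not counted. The groups held 65.3% of the variance of the difference between the members, which did not pass the exact permutation test (p = 0.162).

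The probes of each member were then fitted one by one, over 613 probes. In Src against mock 32.8% of all probes were called, in Csk against mock 42.3%, in Csk+Src against mock 23.7% and in Csk+Src against Src 36.1%. For miR-181a all 3 differences from mock were negative on both probes, but only probe A_54_P1123 passed, in Csk (-0.52, SE 0.073, limma adjusted p = 0.0057) and Csk+Src (-0.49, 0.0156). Its other probe, A_54_P1122, read between -5.42 and -6.38 on the log2 scale, close to the floor of -6.69 set for 1 probe, with an SE of 0.19. For miR-181b both probes passed in all 3 comparisons with mock. They parted in Csk+Src against Src, where A_54_P2650 fell by 0.20 (SE 0.046, limma adjusted p = 0.0278) and A_54_P2651 differed by -0.02 (SE 0.065, limma adjusted p = 0.945). The probe sequences were not used here, so how far a probe for one member also reads another was not tested.

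**Figure D3:**
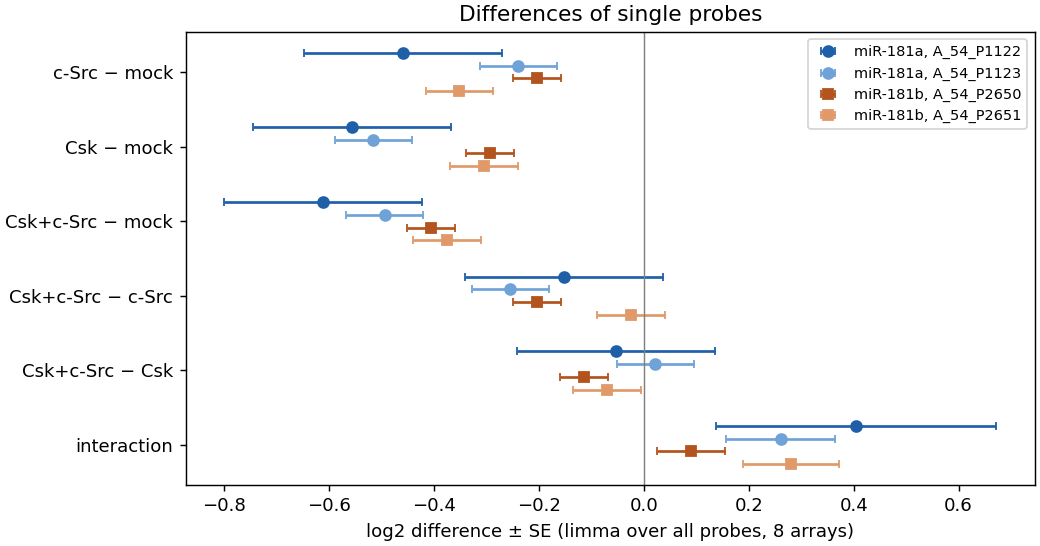
Log2 differences of the 4 single probes of miR-181a and miR-181b (horizontal axis) are drawn with their SE from limma for the 5 comparisons and the interaction. All 4 lie below 0 in each comparison with mock, and the bars of A_54_P1122 (SE 0.19) are the widest.

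miR-181c, the member nearest to miR-181a in sequence, read 5.15 and 4.51 intensity units in mock, 6.71 and 5.58 in Src, 4.38 and 3.0 in Csk+Src, and 2.26 and 1.70 in Csk. In these unscaled units the Src arrays were the highest and the Csk arrays the lowest, and every array with Csk lay below every array without it. How many of all microRNAs separated in this way was not counted. At most 1 of the 20 miR-181c spots on an array lay well above background. It entered the test because both Src arrays detected it, but on the scaled values all 8 arrays lay at or under the floor of 0.0193 of the 75th percentile (log2 -5.69), so its fitted difference was 0 in all 6 comparisons and no fold can be given. It passed the filter through the Src arrays alone, where its unscaled signal was highest, and no array with Csk detected it, so no test of its differences is given. Before the floor, its scaled signal was 1.25% and 1.09% of the 75th percentile in mock and 1.27% and 1.14% in Src, so these groups overlapped. miR-181d read 5.94 and 3.64 in mock, 5.70 and 6.04 in Src, 4.84 and 4.43 in Csk+Src, and 4.23 and 1.59 in Csk. Mock arrays overlapped those of all 3 other groups, and miR-181d was not tested because no group had it detected on both arrays.

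The star arms gave no measurable level. miR-181a-1* read between 2.86 and 5.92 intensity units, the extremes being mock array 1 and Csk array 1, and miR-181a-2* between -2.38 and -0.37, below 0 on all arrays after the background was subtracted. At these signals a difference between groups was not detectable.

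**Figure D4:**
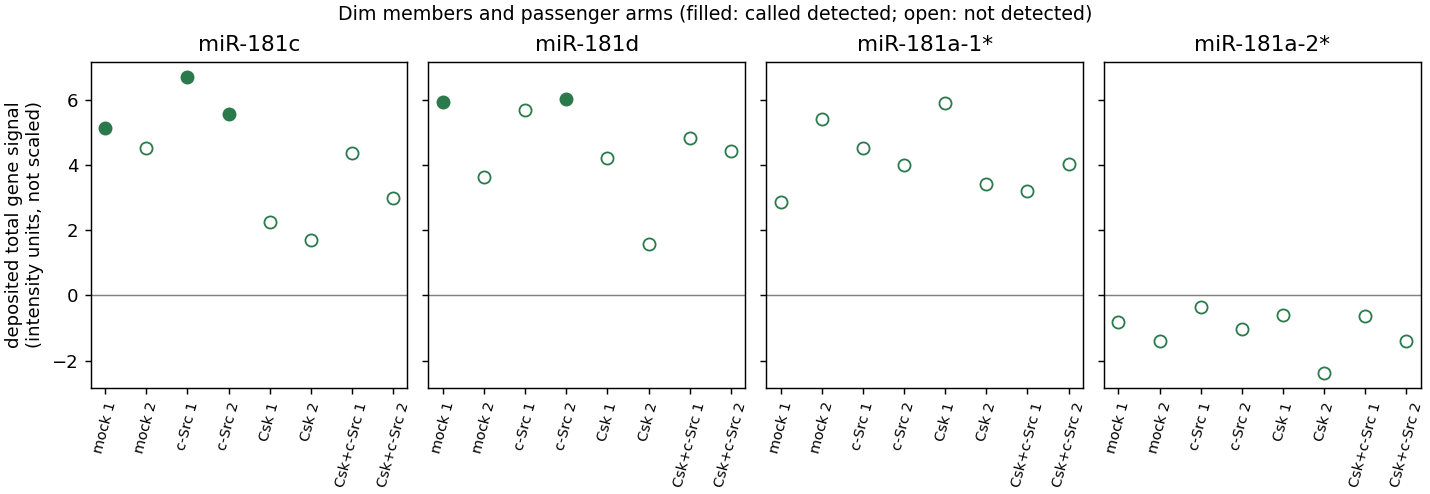
The deposited total gene signal (intensity units, not scaled) of miR-181c, miR-181d and the 2 star arms is drawn for each array, filled where the scanner software called it detected. miR-181c reads 1.70 and 2.26 on the Csk arrays, where it was not detected, and miR-181a-2* lies below 0 on all 8.

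On chromosome 8 the hairpins Mir23a, Mir27a and Mir24-2, which are transcribed together, lie 29556, 29710 and 29853 bases from Mir181c. The array holds 5 of their RNAs, of which 4 were tested and miR-27a* was detected on 0 arrays. In Src against mock 3 rose (miR-23a by 0.40, miR-27a by 0.25 and miR-24-2* by 0.31, limma adjusted p = 0.0042, 0.0454 and 0.0322) and miR-24, which is also made from another gene elsewhere in the genome, fell by 0.34 (0.0021). Of all tested microRNAs 25.9% were called higher and 18.5% lower there. In Csk against mock 1 rose, miR-24 by 0.49 (limma adjusted p = 0.00039), and 0 fell, beside 38.3% called higher over all. In Csk+Src against mock 2 rose, miR-23a by 0.36 (limma adjusted p = 0.0077) and miR-27a by 0.27 (0.0424), and 0 fell, beside 12.3% called higher over all. In Csk+Src against Csk 2 rose, miR-23a by 0.26 and miR-27a by 0.43, and miR-24 fell by 0.58, beside 19.3% higher and 41.6% lower over all. In Csk+Src against Src 1 rose, miR-24 by 0.25, and 0 fell, beside 15.6% higher over all. Their median was 0.28 in Src against mock beside 0 over all tested microRNAs, and 0.08 in Csk against mock beside 0.07.

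For the measured members, the microRNAs outside the family whose levels ran most alike over the 8 arrays were sought by Pearson correlation, given as a description since all arrays share 1 slide and 1 scaling. Those of miR-181a were miR-467f (r = 0.942), miR-148a (0.931) and miR-669c (0.893), and miR-181b itself followed miR-181a at r = 0.837. miR-148a had a mean log2 level of 0.08 in mock, -0.17 in Src, -0.94 in Csk+Src and -0.70 in Csk, a wider range than that of miR-181a. miR-467f and miR-669c are dim, with group means from -4.92 to -5.41 and from -5.13 to the floor of -5.69. Most like miR-181b were miR-139-3p (r = 0.846), miR-1892 (0.845) and miR-291b-5p (0.815), each with its highest mean in mock (-4.28, -2.80 and -3.31).

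Since miR-181 is abundant in lymphoid, neural and muscle cells, markers of other cells were read on the same arrays. Of 8 blood cell microRNAs, 2 were detected, miR-155 and miR-486, while miR-142-3p, miR-142-5p, miR-150, miR-223, miR-451 and miR-144 were detected on 0 arrays. The summed blood cell signal was 26.0% to 29.1% of the 75th percentile in mock, 29.9% to 31.3% in Src, 28.8% to 30.1% in Csk+Src and 38.4% to 42.2% in Csk, the highest group, and its part in the results was not tested. The 2 detected microRNAs moved in opposite directions in Csk against mock. miR-155 rose by 0.70 (limma adjusted p = 0.00083) and miR-486 fell by 0.37 (0.0237). Of 4 muscle microRNAs, miR-206 was detected on 7 arrays and miR-133a on 3, while miR-1 and miR-133b were detected on 0. miR-206 fell by 0.67 in Csk against mock (SE 0.058, limma adjusted p = 0.00040), by 0.43 in Csk+Src against mock (0.0052) and by 0.46 in Csk+Src against Src (0.0021), and differed by 0.03 in Src against mock (0.796). Both Csk arrays of miR-206 lay at the floor of -5.69, so the floor set the size and spread of that fall. The summed muscle signal was 6.02% to 6.52% in mock, 5.33% to 5.93% in Src, 4.60% to 4.97% in Csk+Src and 4.44% to 4.72% in Csk. The Csk+Src and Csk sums overlapped, and the sums include the signal of muscle microRNAs that were not detected. The part of this signal in the result was not tested.

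Of 6 neural microRNAs 3 were detected, and the defining miR-124, miR-9* and miR-137 were detected on 0 arrays. miR-128 rose by 0.52 in Csk against mock (limma adjusted p = 0.00044), miR-219 fell by 0.93 (0.00021) to the floor on both Csk arrays, and miR-9 was at the floor in both groups. The summed neural signal was 11.4% to 11.8% in mock, 13.4% to 13.5% in Src, 11.2% to 11.3% in Csk+Src and 10.6% to 12.1% in Csk. Of 7 epithelial microRNAs only miR-200b was detected, on 1 array, and none was tested. Both endothelial arms of miR-126 were detected, miR-126-5p on 1 array, and miR-126-3p rose by 0.57 in Csk against mock (limma adjusted p = 0.00079) and by 0.21 in Src against mock (0.0411). It moved the other way in Csk+Src, with differences of -0.52 against mock (limma adjusted p = 0.0029), -0.73 against Src (0.00040) and -1.10 against Csk (6.9e-05). The summed endothelial signal was 6.29% to 6.62% in mock, 7.30% to 7.67% in Src, 4.45% to 4.69% in Csk+Src and 9.66% to 9.71% in Csk. Among the mesenchymal microRNAs, 2 of 5 tested rose and 2 fell in Csk against mock, where 55.1% of all tested microRNAs were called, with a median of 0.06 beside 0.07 over all. In Csk+Src against mock, in which miR-181a and miR-181b also fell, 0 rose and 4 of 5 fell, where 34.2% of all were called and 21.8% were called lower, with a median of -0.32 beside -0.08 over all. miR-214 rose by 0.55 in Csk (limma adjusted p = 0.0020) and fell by 0.41 in Csk+Src (0.0117), and miR-199a-3p fell by 0.25 in Csk (0.0320) and by 0.26 in Csk+Src (0.0399). miR-199a-5p rose by 0.39 in Csk (0.00047) and fell by 0.45 in Csk+Src (0.00085), while miR-21 differed by 0.06 (0.709) and 0.25 (0.147). The widest change was in miR-143, with log2 levels of -2.54 and -2.55 in mock, -5.06 and -5.04 in Csk and -2.80 and -2.93 in Csk+Src. The part of these changes in those of the miR-181 members was not tested.

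Over all other settings, which reuse the same arrays, miR-181a and miR-181b lay at or below the median of all microRNAs in each comparison with mock. How many of all microRNAs did so was not counted. Relative to that median miR-181a lay between -0.35 and -0.05 in Src, between -0.67 and -0.18 in Csk, and between -0.51 and -0.069 in Csk+Src, over 15 settings. miR-181b lay between -0.37 and -0.0025 in Src, between -0.49 and -0.07 in Csk, and between -0.39 and -6.5e-05 in Csk+Src. In Src and Csk+Src it thus reached the median. The values nearest to 0 were those after normexp, in which the median of all microRNAs itself fell by 0.48 in Src, by 0.29 in Csk and by 0.47 in Csk+Src.

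**Figure D5:**
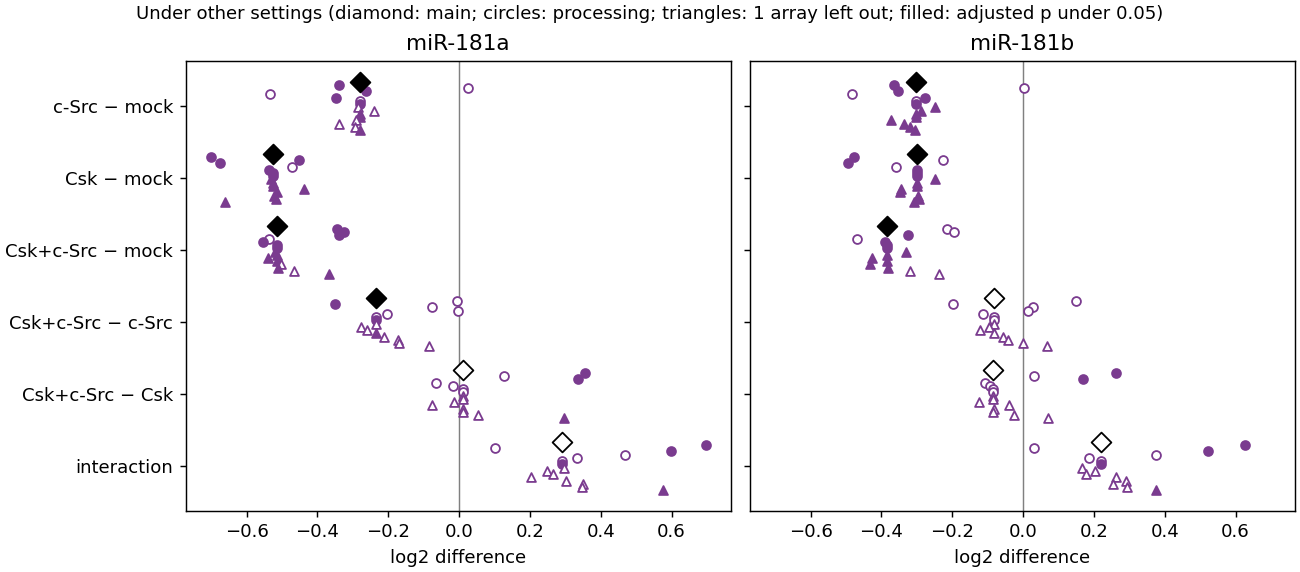
Log2 differences of miR-181a and miR-181b (horizontal axis) under the main processing (diamonds), 7 other processing settings (circles) and with each of 8 arrays left out (triangles) are drawn for the 5 comparisons and the interaction, filled where the limma adjusted p was under 0.05. The fall of miR-181a in Csk against mock stays between -0.70 and -0.44, whereas Csk+Src against Csk lies on both sides of 0 for both members.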

How the data were processed

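MicroRNA was measured on 8 one-colour Agilent arrays in 4 groups of 2. The authors' deposited spot intensity values came from Agilent Feature Extraction 9.5.3.1, per the file headers, after subtraction of a spatially fitted background and without normalization between arrays. The deposited series table holds the same gene intensity with values under 1 set to 1. Processed signals of spots that were not outliers were averaged per probe, summed per microRNA, scaled to the array's 75th percentile (taken over 187 microRNAs seen on every array), floored at log2 -5.69 (the 5th percentile of detected signals) and log2-transformed. Of 611 mouse microRNAs, the 243 with detection in both replicates of some group were fitted together with limma 3.58.1 in R 4.3.3 (4 residual and 5.09 total degrees of freedom), with two-sided Benjamini-Hochberg adjusted p under 0.05 called. The script was tested on simulated data. Figures used matplotlib 3.10.9 in Python 3.11.15. Named are the members, their other arms, the chromosome 8 neighbours and the 3 microRNAs most correlated with each measured member. Of each marker list the tested members are named, or the 4 brightest where more were tested. Undetected markers are named for their detection alone, and miR-143 for its detection and levels. The members and lists were chosen with earlier results of these data known. The labels call the arrays biological replicates; separate transfections are not stated in the sources used here. Alternatives were the percentile over all mouse microRNAs, the unscaled table, quantile normalization, normexp (offset 50), the mean of log2 over probes, no detection filter, the replicate number as a block, and each array left out. With an array left out, the scaling, the floor and the set of tested microRNAs were set anew. Deviations from the group means of arrays with the same number correlated between -0.091 and 0.438, a range that does not settle whether the numbers pair the arrays.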

Additional observations from a re-analysis of the deposited data

How the results depend on the processing

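Differences are log2 and adjusted p-values are limma's; the cause of each change was not tested. For miR-181a, Src against mock was 0.026 in the unscaled table, -0.53 after normexp (adjusted p = 0.0644) and -0.28 without the detection filter (0.101), where all 611 microRNAs were tested. Csk+Src against Src was -0.0049 with the percentile over all mouse microRNAs, -0.077 after quantile normalization, -0.0033 with normexp, -0.20 when log2 values of probes were averaged and -0.24 without the filter (0.152). Csk against mock was -0.47 and Csk+Src against mock -0.54 (0.0956) after normexp. Csk+Src against Csk was 0.36 with the percentile over all mouse microRNAs, 0.34 after quantile normalization (0.0019), -0.066 after normexp and -0.016 with the mean of log2. For miR-181b, Src against mock was 0.0018 in the unscaled table, -0.48 after normexp and -0.30 without the filter (0.0532). Csk+Src against Src was 0.15, 0.028 and 0.015 with the percentile over all mouse microRNAs, quantile normalization and normexp. Csk against mock was -0.23 in the unscaled table and -0.36 after normexp. Csk+Src against Csk was 0.26 (0.0185), 0.17 (0.0428) and 0.032 with the percentile over all mouse microRNAs, quantile normalization and the unscaled table. Csk+Src against mock was -0.22 (0.0524), -0.20 (0.262) and -0.47 with the percentile over all mouse microRNAs, the unscaled table and normexp. The interaction was 0.70 and 0.60 for miR-181a and 0.63 and 0.52 for miR-181b with the percentile over all mouse microRNAs and quantile normalization (adjusted p from 0.0013 to 0.0045). With the replicate block it passed, at 0.29 (0.0481) and 0.22 (0.0392). The block changed no other call on the members, and whether the numbers pair the arrays is not settled. After normexp the called microRNAs went from 108 to 28 in Src against mock, 109 to 18 in Csk+Src against Src, 134 to 18 in Csk against mock, 148 to 40 in Csk+Src against Csk, 83 to 1 in Csk+Src against mock and 123 to 1 in the interaction. Without the filter they were 66 in Src against mock and 46 in Csk+Src against mock. The share of variance between groups passed the adjusted exact permutation test for miR-181a at 97.9% (percentile over all mouse microRNAs), 99.2% (unscaled table), 98.3% (quantile normalization) and 90.3% (mean of log2), for miR-181b at 93.5%, 95.6% and 93.8% (the same without the unscaled table), and for the difference between the members at 77.6% (quantile normalization).

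With each array left out, miR-181a ran from -0.34 to -0.24 in Src against mock, -0.28 to -0.086 in Csk+Src against Src, -0.66 to -0.44 in Csk against mock, -0.076 to 0.30 in Csk+Src against Csk, -0.54 to -0.37 in Csk+Src against mock and 0.20 to 0.58 in the interaction. In the same order miR-181b ran from -0.37 to -0.25, -0.12 to 0.068, -0.35 to -0.25, -0.13 to 0.070, -0.43 to -0.24 and 0.17 to 0.37, and called microRNAs from 57 to 114, 82 to 112, 109 to 134, 111 to 151, 31 to 91 and 80 to 120. Of the members' differences under other settings, 123 kept direction and call, 32 kept the direction and lost the call, 11 kept the direction and gained a call, and 14 changed sign, with or without a change of call. The signal of miR-181c, miR-181d and the star arms over background limits what can be said of them.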
